A study of Homo sapiens with 8 samples.

Results

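The guides described here target human translation initiation and elongation factor genes. They were chosen by gene symbol, namely the numbered EIF and EEF families, ETF1, GSPT1, ABCE1, DENR and MCTS1, leaving out guides typed as controls. The rule found 1066 of the 46829 guides in the screen, on 148 of 6735 targeted splice junctions and in 20 of 1250 genes. All 20 genes are named below. They are initiation factor genes for the most part, with EIF5A from elongation, DENR from recycling and EIF4A3 from the exon junction complex. The number of guides per gene ran from 3 for EIF1AX to 134 for EIF3A, with a median of 41.

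The screen used A375, an established human melanoma cell line, in a monoclonal line carrying RfxCas13d under a doxycycline-inducible TetO promoter (genotype TetO-RfxCas13d). RfxCas13d is an RNA-guided nuclease that cuts RNA rather than DNA, and each guide was directed at an exon-exon junction of a messenger RNA. Guide cassettes were amplified from genomic DNA of 8 libraries: untreated cells at Day 0, and cells under 1 ug/ml doxycycline at Days 7, 14 and 21, with 2 replicates at each time. All values come from 1 clone, and the table calls the replicates biological while no label says whether they were separate cultures, so the p-values measure only the spread between these libraries.

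Translation initiation brings the ribosome to the start codon of a messenger RNA. The eIF2 complex carries the initiator transfer RNA and is recharged with GTP by the exchange factor eIF2B, eIF3 is a large scaffold on the small ribosomal subunit, and the eIF4 proteins recognise the cap and prepare the messenger RNA. Growing cells depend on this machinery, so loss of a core factor is a common result in growth screens.

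A value is the deposited log2 fold change of a guide against Day 0 of the same replicate. A negative value means that the guide became rarer in the pool. Gene and junction values are means over guides, and a gene, junction or guide is called lower or higher where limma's test against 0 gave a Benjamini-Hochberg adjusted p under 0.05 over all features of the table with at least 3 guides (or over all guides). The read depth is unknown, but in each library 100% of the values equalled a library constant plus the log2 of a ratio of whole numbers, within a relative tolerance of 1e-09 and with denominators of up to 2000 allowed. With the constant moved, at most 0.314% did so. The Day 0 whole number of a guide, a lower bound on its count plus any pseudocount, had a median over member guides of 88 in replicate 1 and 121 in replicate 2. Junctions are given by the start and end that the table lists, in hg38 per the submitters' processing notes. All 148 fell within the RefSeq gene that bears the same symbol, in the annotation of GRCh38.p14. At Day 21 an implied number of 1, below which no loss can be measured, was reached by 68 (6.38%) and 76 (7.13%) of the member guides in replicates 1 and 2.

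Guides against the factor genes lay below the non-targeting guides, and further below at each later day. Their median minus that of the 963 non-targeting guides of the same library was -0.11 and -0.23 at Day 7 in replicates 1 and 2, -0.52 in both replicates at Day 14, and -0.72 and -0.64 at Day 21. Averaged over replicates (SD, n = 2), this difference was -0.17 ± 0.078, -0.52 ± 0.0039 and -0.68 ± 0.056 at these days. The gap was wider at each later day in both replicates. For guides of non-essential control genes the same difference was -0.0037 ± 0.047 at Day 21. Relative to the guides of the other scored genes, which are the genes with a GeCKO gene score in the table, the member median differed by -0.40 and -0.34 at Day 21. Guides of ribosomal protein genes lay lower still: the member median exceeded theirs by 2.28 ± 0.13 for the large subunit and by 0.63 ± 0.046 for the small subunit (SD, n = 2). These differences are given without a p, since with 2 replicates an exact sign-flip test (two-sided) gives at least 0.5.

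Of the 20 genes, 9 were called lower at Day 21 and none higher, against 20.8% of all 1223 genes tested called lower. All 9 had a mean below -1 in both replicates, and no other member did. The median gene mean was -0.72 for the members, -0.43 for the 809 other scored genes, of which 225 (27.8%) were called lower, and -0.28 over all genes tested. The 9 genes had different roles: 4 of 5 eIF3 subunits, both eIF4 genes, 1 of 5 genes of the ternary complex and start codon, 1 of 5 eIF2B subunits, and EIF4A3. The call depended on how a library was centred and summarised. It held for EIF3B, EIF4A3 and EIF2S1 alone when each library was centred on the median of all guides, which moved Day 21 values up by 0.33 and 0.28. It held for no member with the median over guides in place of the mean, where 11 members had an unadjusted p under 0.05. Calls fell over the whole table too: in either direction, 5.15% of all genes were called after this centring and 2.04% with the median over guides. A shared fit of all days and a fit with the replicate number as a block each called 14 members, but also 41.9% and 51.1% of all genes in either direction, against 21.4% with Day 21 fitted alone.

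The eIF3 complex held the lowest member. EIF3B, a core scaffold subunit, had means of -0.43 and -0.84 at Day 7, -1.93 and -2.59 at Day 14, and -2.41 and -2.72 at Day 21 in replicates 1 and 2. Both replicates were lower at each later day, and the Day 21 mean was -2.56 ± 0.22 (SD, n = 2; SE 0.16, limma adjusted p 0.0107) over 96 guides. EIF3D, a subunit that can itself bind caps, stood at -0.28 and -0.36, then -1.16 and -1.38, then -1.54 and -1.66 (adjusted p 0.0133 at Day 21). EIF3A, the largest scaffold subunit, stood at -0.34 and -0.56, then -1.29 and -1.27, then -1.47 in both replicates (adjusted p 0.0145). Replicates of both genes lay close together at each day. EIF3I, a subunit of the same module as EIF3B, began at 0.02 and -0.41, reached -0.92 and -1.13 at Day 14, and ended at -1.11 and -1.37 (adjusted p 0.0214). EIF3J, a loosely attached subunit, was the exception: its 15 guides averaged -0.19 and 0.20 at Day 21 (adjusted p 0.989), and its replicates straddled 0.

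EIF4A3 had the second-lowest mean. Despite its name it is the RNA helicase at the core of the exon junction complex, which marks spliced junctions and takes part in nonsense-mediated decay, rather than a cap-binding factor. Its means were -0.51 and -1.35 at Day 7, -2.05 and -2.23 at Day 14, and -2.42 and -2.35 at Day 21. The replicates lay apart at Day 7 and together at Day 21, where the mean was -2.39 ± 0.051 (SD, n = 2; SE 0.14, limma adjusted p 0.0107) over 49 guides. Among the eIF4 genes, EIF4G2, an eIF4G relative that does not bind the cap protein, stood at -0.36 and -0.78, then -1.13 and -1.61, then -1.44 and -1.48 (adjusted p 0.0149). EIF4E, the cap-binding protein, was the late member of the 9. It stood at 0.16 and -0.08 at Day 7, -0.21 and -0.79 at Day 14 (adjusted p 0.149), and -1.02 and -1.25 at Day 21 (adjusted p 0.0232).

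EIF2S1, the alpha subunit of eIF2 whose phosphorylation slows initiation under stress, was low by Day 14 and moved little after it. Its means were -0.16 and -0.77 at Day 7, -1.67 and -1.70 at Day 14, and -1.63 in both replicates at Day 21. The Day 21 mean was -1.63 ± 0.0057 (SD, n = 2; SE 0.14, limma adjusted p 0.0126) over 29 guides. Of the 5 subunit genes of eIF2B, which recharges eIF2, EIF2B5, the catalytic subunit, was called lower: it stood at -0.13 and -0.25, then -1.05 and -0.94, then -1.30 and -1.20 (adjusted p 0.0186). The regulatory and partner subunits did not pass the test at Day 21, but EIF2B1, EIF2B3 and EIF2B4 did in the shared fit (adjusted p 0.0075, 0.0141 and 0.0101) and with the replicate block (0.00538, 0.00352 and 0.00573). The shared fit and the block also called 41.9% and 51.1% of all genes in either direction, so passing there says little about these subunits. EIF2B3 stood at -0.99 and -0.48 (adjusted p 0.0873), EIF2B4 at -0.84 and -0.47 (adjusted p 0.0844) and EIF2B1 at -0.48 and -0.64 (adjusted p 0.0846), all below 0 in both replicates. EIF2B2, at -0.24 and 0.23 (adjusted p 0.984), had replicates on either side of 0.

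The remaining factors of start codon selection and subunit joining showed smaller or less certain values. EIF5B, the GTPase that joins the ribosomal subunits, stood at -0.84 and -0.57 at Day 21 over 133 guides (limma adjusted p 0.0645). It passed the threshold under 4 alternatives: the shared fit (adjusted p 0.00642), the replicate block (0.00202), at least 5 guides per gene (0.0453) and an implied Day 0 number of 50 or more (0.0385). Of these, the shared fit and the block called 41.9% and 51.1% of all genes in either direction, which holds for EIF1AX below as well. EIF1AX, which helps scanning, stood at -1.004 and -0.30 with 3 guides (adjusted p 0.151; 0.0368 in the shared fit and 0.0132 with the block), so its replicates differed by about as much as its mean. EIF5, the GTPase-activating protein of eIF2, stood at -0.08 and -0.24 over 49 guides (adjusted p 0.513). EIF1, which guards start codon choice, stood at -0.34 and 0.17 over 8 guides (adjusted p 0.806). For EIF5 and EIF1 the values lay near those of the control guides. Centring on all guides turned both means positive, to 0.15 and 0.22.

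The highest member mean belonged to EIF5A, the elongation factor that relieves stalled ribosomes. Its 8 guides, all on a single junction, averaged 0.46 and -0.38 at Day 7, 0.32 and -0.51 at Day 14, and 0.79 and -0.33 at Day 21. Replicate 1 was positive and replicate 2 negative on every day, so the Day 21 mean of 0.23 ± 0.79 (SD, n = 2) had no settled sign (limma adjusted p 0.674). DENR, which acts in ribosome recycling and reinitiation, averaged 0.07 and -0.11 at Day 7, 0.11 and -0.61 at Day 14, and 0.24 and -0.06 at Day 21 over 29 guides (adjusted p 0.745).

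The timing of loss was then compared. At Day 7, 2 of 20 members were called lower, EIF4A3 (limma adjusted p 0.0425) and EIF3B (adjusted p 0.0498). This compares with 3.92% of all genes and with 43 of the 809 other scored genes. Both adjusted p-values lie close to the threshold, and 7 of the 10 alternatives run for Day 7 called no member, with 5 to 7 members at an unadjusted p under 0.05. Those 7 called 0 to 3.03% of all genes in either direction. At Day 14, 8 of 20 were called lower, against 22.1% of all genes and 236 of the 809 other scored genes. All 8 were called at Day 21 as well, and EIF4E was the addition. The Day 14 count was 4 with the median over guides and 14 with the replicate block. These called 7.28% and 40.5% of all genes in either direction. Day 7 means were lower in replicate 2 than in replicate 1 for 15 of 20 members and for 73.5% of all genes, so the order of the replicates was that of most genes of the table.

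A test of the difference between Day 21 and Day 7 within each replicate called 10 of 20 members lower at Day 21. The share was 23.5% of all genes, and it was not counted for the other scored genes alone. The 10 members were the 9 genes and EIF5B. EIF3B fell by 1.98 and 1.88 between the days in replicates 1 and 2 (limma adjusted p 4.11e-05), the steepest course among the members. EIF4E fell by 1.19 and 1.16 (adjusted p 0.00157), although its Day 7 level was near 0. EIF5B fell by 0.79 and 0.59 (adjusted p 0.0351) from -0.05 and 0.01 at Day 7. With libraries centred on all guides 3 members kept the call of a difference between the days, and with the median over guides 1 did. Calls fell over the whole table as well, to 9.81% and 3.76% of all genes in either direction.

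The deposited table types each gene as essential or not under Cas13 by a criterion that is not stated, and which may rest on these same values. For 8 of the 20 genes the type and the call differ. Of the 13 members typed essential, 7 were called lower at Day 21, and EIF2B1, EIF2B3, EIF2B4, EIF5, EIF5B and DENR were not. Of the 7 typed not essential, EIF2B5 and EIF3I were called lower, and EIF1, EIF1AX, EIF2B2, EIF3J and EIF5A were not. The shares called lower were 53.8% and 28.6% for the 2 types, against 20.8% of all genes tested. Shares for all genes of each type were not counted, so whether such disagreement is usual in the table was not tested. The GeCKO gene score, whose name is that of a library for Cas9 knockout and whose making is not stated, ranged over the members from -1.74 for EIF3D to -0.85 for EIF2B3. Across the 20 genes it correlated with the Day 21 mean at a Pearson r of 0.267 and a Spearman rho of 0.277. The points share the 2 replicates and rest on 3 to 134 guides each, and this is given as a description.

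Among 8 listed genes outside the members, with roles around protein synthesis, 3 were called lower at Day 21 (37.5%). The shares were 20.8% of all genes and 27.8% of the other scored genes. The 3 listed genes were RACK1, a ribosome-bound scaffold protein, at -1.40 in both replicates, HSPA8, a chaperone of newly made proteins, at -1.41 and -1.36, and MTOR, the kinase that controls cap-dependent initiation, at -1.02 and -1.10. TSR1, a small-subunit assembly factor, stood at -0.98 and -0.63 (limma adjusted p 0.0577), and TRMT112, LTV1, DPH3 and N6AMT1 did not pass the test either.

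Junctions of the same gene differed widely, and more of the spread lay there than between genes. Of the sum of squares among member guides at Day 21, 12.6% lay between genes, 28.9% between junctions of a gene and 58.4% between guides of a junction. For the other scored genes the shares were 19.9%, 24.0% and 56.1%. Replicates correlated at r 0.672 over member guides, 0.894 over junctions and 0.879 over genes, as a description over values that share libraries. In what follows junctions are numbered from the 5′ end among the targeted junctions of a gene, and a full set is 8 guides.

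Of the 139 member junctions with at least 3 guides, 68 were called lower at Day 21 and 1 higher, against 25.3% of all junctions tested called lower. They comprised 57 of 85 junctions of the 9 called genes and 11 of 54 junctions of the other members. A mean of -3 or lower was reached by 14 junctions, 10.1% of those tested, against 5.06% of all junctions. A lower junction did not need many lost guides: in 14 of the 68 a single guide was called by itself and in 2 none was. Nor did it need close replicates. The SE against 0 was 0.358 for every tested member junction, so a junction's own replicate spread did not enter its p. Junction 5 of EIF4G2, at -0.30 and -2.06 (limma adjusted p 0.0049), and junction 12 of EIF3A, at -1.66 and -0.20 (adjusted p 0.0375), were called lower. To test the spread within genes directly, each junction was set against the guides of the other junctions of its gene in the same replicate. This test compares the same guides between replicates and so says nothing of other guides to that junction. It called 53 of 137 member junctions different, 26 lower and 27 higher, against 21.9% of all junctions (12% lower and 9.92% higher). The test favours both directions within a gene, since low junctions lower the rest against which its other junctions are set. Of the 27 higher junctions, 23 were not called against 0. The 53 junctions lay in 14 of the 17 genes that could be tested. The matching share of all genes was not counted, and a gene with more junctions has more chances to hold one. With the median over guides in place of the mean, 30 of the 53 kept their call, 20 of the lower and 10 of the higher junctions. That setting called 11.5% of all junctions in either direction. With the replicate block, 90 were called (39 lower and 51 higher), and 46% of all junctions.

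EIF4A3 had the widest gap between junctions among the members, 5.25. Junction 3 (chr17:80138280-80139020) stood at -5.10 and -5.73 in replicates 1 and 2, and junction 7, the last (chr17:80135506-80136003), at -4.85 and -5.05. Junction 6 (chr17:80136131-80136227), which neighbours junction 7, stood at -0.23 and -0.09, and junction 2 (chr17:80139162-80139669), which neighbours junction 3, at -0.81 and -0.32. Strong and weak junctions thus alternated along the gene. The first pair lay below the rest of the gene with a difference of -3.62 (SE 0.37, limma adjusted p 1.13e-09) and -3.06 (SE 0.36, adjusted p 2.58e-08). The second pair lay above it by 2.66 (adjusted p 4.6e-07) and 2.18 (adjusted p 1.45e-05). All 4 are common junctions in the table's categories, whose definitions are not stated, so the gap is not one between categories.

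The guides of EIF4A3 show how far its strong junctions were uniform. All 8 guides of junction 3 were called lower, with means from -7.16 to -3.37. At junction 7, 7 of the 8 guides were called lower, and the means ran more widely, from -7.09 to -1.18. No guide of junction 6 was called, and its means ran from -1.62 to 1.00. At junction 1, 7 of the 8 guides lay between -2.11 and 0.34 while number 7 stood at -6.66 and -7.11, so the junction mean of -1.59 owed much to this guide; with the median over guides it was -1.03 (limma adjusted p 0.0528). The lowest guide of the gene, number 1 of junction 3, had -1.21 and -2.01 (Day 7), then -3.49 and -4.09 (Day 14), then -6.81 and -7.51 (Day 21). The highest, number 2 of junction 5, was at 2.40 and 1.09 at Day 21 (adjusted p 0.237).

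EIF3B differed from the other called genes in that every one of its 12 tested junctions was called lower. They ranged from -1.09 at junction 10 (chr7:2375527-2376949) to -4.40 at junction 13, the most 3′ (chr7:2379242-2379393). Junction 13 stood at -3.87 and -4.92, below the rest of the gene with a difference of -1.98 (SE 0.37, limma adjusted p 6.98e-05). Junction 10 stood at -1.07 and -1.11, above it by 1.61 (adjusted p 0.000881), a call lost with the median over guides (adjusted p 0.0618). In all, 4 of its junctions were lower and 3 higher than the rest. The lowest guide, number 2 of junction 6, had -0.95 and -1.63 (Day 7), then -3.66 and -4.81 (Day 14), then -7.17 and -8.35 (Day 21). It was the lowest guide of the 3 lowest genes, and the implied numbers fell to 1 in both replicates, from 151 and 297 at Day 0. The highest guide, number 1 of junction 3, was at -0.39 and 2.29 (adjusted p 0.703), so its replicates disagreed in sign.

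EIF2S1 was graded from one end to the other. Its 4 junctions, in order from the 5′ end, had Day 21 means of -3.09, -2.41, -1.25 and -0.07. Junction 1 (chr14:67376590-67380658) stood at -3.05 and -3.13 and lay below the rest with a difference of -2.01 (SE 0.36, limma adjusted p 4.42e-05). Junction 4 (chr14:67382590-67383314) stood at 0.13 and -0.27 and lay above it by 2.15 (SE 0.36, adjusted p 1.75e-05). The lowest guide, number 7 of junction 1, was at -6.86 and -7.09, and the highest, number 5 of junction 3, was at 3.95 and 0.23 (adjusted p 0.152). EIF3I had a like order, with -1.98, -2.12 and -1.84 at junctions 1 to 3 and -0.20 and 0.07 at junctions 4 and 5. Position did not order the junctions in general: over the 12 members with at least 5 junctions, Spearman's rho between order and mean ran from -0.7 to 0.9 and was above 0 in 5.

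EIF3A, EIF3D and EIF4G2 held junctions nearly as low as those of EIF4A3 beside junctions near 0. In EIF3A, junction 10 (chr10:119059397-119059601) stood at -4.12 and -5.49 and lay below the rest with a difference of -3.55 (SE 0.38, limma adjusted p 3.48e-09), and junction 2 (chr10:119073577-119073746) stood at 0.56 and 0.00. In EIF3D, junction 9 (chr22:36516607-36516704) stood at -4.09 and -5.37, below the rest with a difference of -3.48 (SE 0.38, adjusted p 4.22e-09), and junction 1 (chr22:36525709-36525998) at -0.01 and 0.76. In EIF4G2, junction 12 (chr11:10799756-10800089) stood at -3.98 and -5.64, below the rest with a difference of -3.52 (SE 0.39, adjusted p 5.96e-09), and junction 10 (chr11:10800647-10800730) at -0.25 and 0.41. Each of these 3 genes thus spanned about as wide a range as EIF4A3, with gaps of 5.08, 5.10 and 4.89. Some of these ends rest on fewer guides than a full set. Junction 2 of EIF3A had 4 guides, with means from -1.945 to 1.632, and junctions 12 and 10 of EIF4G2 had 5 and 7. In EIF4E the 3 junctions lay closer, at -1.37, -1.61 and -0.42, and the last was higher than the rest by 1.07 (adjusted p 0.0338; 0.668 with the median over guides).

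The remaining junctions that passed the test within their gene are given by their difference from the rest. Those that kept the call with the median over guides were junctions 4, 9, 2 and 15 of EIF3A, at -2.25, -2.40, 1.80 and 1.48, and junctions 6, 9, 12 and 3 of EIF3B, at -1.49, -1.33, -0.99 and 1.22. In EIF4G2 they were junctions 4, 3, 6, 11 and 14, at -2.40, -1.33, -1.12, 1.42 and 1.54, in EIF3D junction 1 at 2.20, and in EIF2B5 junction 12 at -1.99. EIF3A, EIF3B and EIF4G2 held junctions on both sides of the rest, which a test against the rest of the gene favours. Those that lost the call were junctions 8, 14 and 16 of EIF3A (-0.99, 1.48 and 1.83), 8 of EIF3B (1.104), 3 and 4 of EIF3D (1.33 and 1.51), and 2, 4 and 5 of EIF3I (-1.10, 1.27 and 1.65). The call was lost as well by junctions 2 and 10 of EIF4G2 (1.30 and 1.65), 4 and 10 of EIF2B5 (-1.26 and 1.02), 7 of EIF2B4 (1.09), 4 of EIF2B3 (-0.99), 2 and 4 of DENR (1.13 and -1.39), and 9, 12, 14 and 17 of EIF5B (1.31, 1.33, 0.98 and -1.44).

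Some junctions were low as early as Day 7. A mean of -1 or lower in both replicates at Day 7 was found at 7 member junctions, 5.04% of those tested, against 1.34% of all junctions. They were junctions 4 and 10 of EIF3A, 3 and 7 of EIF4A3, and 4, 6 and 12 of EIF4G2. EIF4G2 junction 12 was at -1.53 and -3.98 at Day 7 and at -3.43 and -5.76 at Day 14. Replicate 2 was the lower at Day 7 in all 7.

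EIF2B5 is the called member whose junctions fall into several categories, with 1 common, 1 fully_unique and 11 partial_unique. Its common junction, the first (chr3:184135580-184136611), stood at -0.12 and 0.20 and was higher than the rest of the gene by 1.40 (SE 0.36, limma adjusted p 0.00366). Its fully_unique junction, the third (chr3:184137805-184137897), stood at -2.43 and -2.71 and was lower than the rest with a difference of -1.43 (SE 0.36, adjusted p 0.00319). The partial_unique junctions spanned the range between and beyond, from -0.31 at junction 10 to -3.09 at junction 12 (chr3:184144224-184144596). With 1 junction in each of 2 categories, category and junction cannot be told apart in this gene.

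Genes that were not called as a whole still held lost junctions. In 5 of the 11 such members at least 1 junction was called lower, against 28.2% of all genes not called lower. A gene with more junctions has more chances to hold one, and the 2 sets were not matched for this. The latter set includes control genes, of which the screen held 413 on 698 junctions. Of the 54 tested junctions of the 11 members, 11 (20.4%) were lower. These 11 members were picked for not being called, while the 25.3% of all junctions includes those of called genes, so the shares are not alike. EIF2B4 was the clearest: junction 3 (chr2:27368463-27368653) stood at -2.63 and -2.57 and lay below the rest with a difference of -2.26 (SE 0.36, limma adjusted p 7.62e-06), while the other 7 tested junctions lay between -0.79 and 0.29 and none of them was called against 0. In EIF2B1 the last of 3 junctions (chr12:123627156-123630168) stood at -1.25 and -1.70 and was below the rest with a difference of -1.37 (adjusted p 0.00477). EIF2B3 had lower junctions at numbers 4 and 5, with means of -1.54 and -1.19. EIF5B had 6 lower junctions of 18, the lowest being junction 4 (chr2:99361820-99363644) at -3.32 and -2.32, below the rest with a difference of -2.25 (SE 0.37, adjusted p 9.74e-06), and its highest, junction 12, stood at 0.46 and 0.64. The gene means near the threshold in eIF2B and EIF5B therefore average over unlike junctions. This is not particular to them: gaps between junctions were 1.405 for EIF2B1, 1.456 for EIF2B3, 2.888 for EIF2B4 and 3.374 for EIF5B. In called genes they ran from 1.192 for EIF4E to 5.253 for EIF4A3.

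DENR had junctions called in both directions. Junction 4 (chr12:122767604-122768781) stood at -0.49 and -1.44 (mean -0.97, limma adjusted p 0.0291), and junction 2 (chr12:122762206-122762844) at 0.83 and 0.98 (mean 0.91, adjusted p 0.0446), the only member junction called higher. Neither call was firm: junction 4 had -0.55 with the median over guides (adjusted p 0.423), and junction 2 had 0.48 (adjusted p 0.434) for guides whose implied Day 0 number was 50 or more. EIF5, EIF2B2 and EIF3J had no junction called in either test, with junction means between -0.83 and 0.30.

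Among single guides at Day 21, 215 of 1066 member guides were called lower and 1 higher, against 11.1% of all guides called lower. With the replicate block the counts were 337 lower and 40 higher, and 23.4% of all guides were called in either direction. Within the 9 called genes 184 of 657 guides were lower, and within the other members 31 of 409. A value of -1 or lower in both replicates was found for 312 guides (29.3%), against 17.6% of guides of other scored genes and 3.74% of non-targeting guides. A mean of -5 or lower was reached by 93 guides (8.72%), against 3.6% of all guides. The share of guides called lower within a gene ran from 43.8% for EIF3B and 42.9% for EIF4A3 to 0 for EIF1, EIF1AX, EIF2B2 and EIF5A. The guide called higher, number 4 of junction 2 of EIF2B2, stood at 2.45 and 2.62 (limma adjusted p 0.0356), while the mean of that junction was 0.20. At 6 of the 139 tested junctions every guide was below 0 in both replicates: junctions 3 and 7 of EIF4A3, 9 of EIF3A, 6 of EIF3B, 9 of EIF3D and 2 of EIF2S1.

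Guides of the same junction with neighbouring numbers resembled each other. What the numbers stand for is not stated. Over the 102 member junctions with 8 guides, deviations from the junction mean correlated at 0.131 between guides with adjacent numbers and at -0.351 between guides 4 numbers apart, where centring alone gives -0.143. The same measure over 4329 junctions of other scored genes was 0.0704 and -0.263. EIF3B junction 2, picked as an example after its values were seen, shows the pattern. Numbers 1 to 4 had Day 21 means between -0.58 and 0.44, and numbers 5 to 8 had -3.20, -5.80, -4.87 and -6.20. The junction mean of -2.60 thus lay where no guide did.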

How the data were processed

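Guide abundance was measured by sequencing guide cassettes from genomic DNA of 8 A375 libraries, and 6 of them have values against Day 0. The authors deposited log2 fold changes for each guide in each library, per the file headers, with no statement of pseudocount, scaling or filter. A GeCKO gene score per gene stands in the same deposited table, and how it was made is not given in the sources used here. The submitters' processing notes name cutadapt 3.5, Bowtie 1.1.2 and hg38, without their roles. The study's methods for counting guides are not given in the sources used here.

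Groups and replicate numbers came from the labels. Fold changes of a single day were averaged over the guides of a gene or junction (at least 3 guides) and tested against 0 with limma 3.58.1 in R 4.3.3 (lmFit, eBayes), with Benjamini-Hochberg adjustment over all features of the table and a threshold of 0.05. Each day was fitted alone because earlier simulations for this series showed the shared fit to be too liberal at Day 21. Junctions were also tested against the other junctions of their gene, and Day 21 against Day 7, on differences within a replicate. The limma test was also run on simulated normal values drawn with the spread that limma itself estimated. Such values cannot show how it behaves on data that depart from that model. Whole numbers behind the values were recovered by continued fractions and served as a filter and as a floor.

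The members, their roles and the listed partner genes were chosen with earlier results of these data known. Values were given for every member at Day 21, per day for members called at Day 21 and for the highest mean, for members whose type and call differ, for junctions that pass the test within their gene (their level or their difference), and for the lowest and the highest guide of the 3 lowest genes. Alternatives were the centring of libraries (non-targeting, control gene or all guides), the median over guides, a shared fit of all days, the replicate number as a block, robust empirical Bayes, at least 1 or 5 guides, an implied Day 0 number of at least 50, and leaving out a replicate. Centring and the block for junctions within a gene, and the shared fit for Day 21 against Day 7, were added after seeing the data.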

Additional observations from a re-analysis of the deposited data

Results flagged for a closer look

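The difference between Day 21 and Day 7, tested within replicates with limma over all genes, passed the threshold in 10 member genes, and each was lower at Day 21. The difference was -1.93 for EIF3B, -1.46 for EIF4A3, -1.28 for EIF3D, -1.18 for EIF4E, -1.16 for EIF2S1, -1.06 for EIF2B5, -1.04 for EIF3I, -1.02 for EIF3A, -0.89 for EIF4G2 and -0.69 for EIF5B. EIF5B is the one among them that was not called at Day 21 itself. The groups of 2 replicates are too small for a check of single samples that stand apart.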

How the results depend on the processing

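With 2 replicates, leaving one out gave no test; the Day 21 median of member guides minus non-targeting guides (-0.68) then ran from -0.72 to -0.64. It was -1.13 with the mean over guides, -0.78 over member gene means and -0.74 for guides whose implied Day 0 number was 50 or more. At Day 7 the 2 calls became 0 in the shared fit of all days, with at least 1 guide, under each of the 3 centrings, with the implied Day 0 filter and with robust empirical Bayes, and 4 with at least 5 guides. The last setting called 7.16% of all genes in either direction, and the others 0 to 3.03%. At Day 14 the 8 calls became 4 with the median over guides, which called 7.28% of all genes in either direction. At Day 21 the 9 calls became 14 in the shared fit, 3 after centring on all guides (6 genes moved to adjusted p-values from 0.0511 to 0.0819) and 0 with the median over guides (limma adjusted p from 0.058 to 0.164, with 11 at an unadjusted p under 0.05). The shares of all genes called in either direction were 41.9%, 5.15% and 2.04% in these settings. For Day 21 against Day 7, 10 became 3 after centring on all guides and 1 with the median, and the junctions that differ within their gene went from 53 to 30 with the median. Over the whole table these settings called 9.81% and 3.76% of all genes and 11.5% of all junctions. With the replicate number as a block, calls became 1 at Day 7, 14 at Day 14, 14 at Day 21, 377 guides (from 216) and 90 junctions within their gene. The block called 3.43%, 40.5% and 51.1% of all genes at these days, 23.4% of all guides and 46% of all junctions. Days of a replicate share its Day 0 library, and deviations of member guides correlated at 0.372 to 0.574 between days. The test between days used these pairs, and a test of a single day against 0 has none. Means that changed sign, none of them of a called gene, were EIF5 (0.15 centred on all guides), EIF1 (0.22 centred on all guides, 0.20 with the median), EIF2B2 (0.30 centred on all guides, 0.014 on control guides, 0.011 on non-targeting guides, 0.038 with the median) and DENR (-0.11 with the implied Day 0 filter). Junction 5 of EIF3A, called lower at -0.97, was 0.21 with the median over guides. The cause of these changes was not tested. Depth limits the lowest guides, since an implied number of 1 is the floor.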
